A study of Mus musculus with 20 samples.

Results

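The genes described here are 36 stellate cell and extracellular matrix genes, listed by symbol: collagens, markers of stellate cells and pericytes, matrix glycoproteins and proteoglycans, enzymes and inhibitors of matrix turnover, and the growth factor gene Tgfb1. Of the 36, 34 had 1 probe set each among the 19505 genes of the arrays, and Pdgfra and Ecm1 were not analysed here. A gene was tested when its mean log2 signal lay above 4.05, the 40th percentile of the probe sets that are not controls. This left 27 of the 34 among 11844 genes tested, and 7 members were too dim to test.

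Hepatic stellate cells lie between hepatocytes and the sinusoidal endothelium, store vitamin A as retinyl esters, and are the main source of fibrillar collagen in an injured liver. On injury they lose their vitamin A stores, become contractile myofibroblasts, and lay down matrix under the influence of transforming growth factor beta and platelet-derived growth factor. Matrix in the liver is also made by other cells: hepatocytes secrete plasma fibronectin and make type XVIII collagen.

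Liver RNA of 20 male mice of the leptin-deficient, obese ob/ob strain was measured, with 1 array for each mouse. The 4 groups had 5 mice each: mice exposed to PM2.5 (fine airborne particles) that also drank metformin, called the combined group here, mice exposed to PM2.5, mice that drank metformin, and mice given filtered air. All groups share the ob/ob genotype, so no lean mouse is among them, and no age is given in the sources used here. Exposure lasted 2 weeks, with 6 h a day in the exposure chamber. The protocol is worded the same for every mouse, and the label of the metformin group does not name the air these mice breathed. Mice are numbered 1 to 5 within a group in deposit order, and equal numbers pair no mice. Whether mice shared a cage or litter is not given, so p-values here measure only the spread between these mice.

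Each value is a log2 signal, and the level of 5222 negative-control probe sets on the same array gives the background. The median of these controls averaged 4.49 over the 20 arrays and their 95th percentile averaged 8.36. The control median was 4.59, 4.79, 4.46, 4.69 and 4.44 in combined mice 1 to 5. It was 4.34 to 4.52 in PM2.5, 4.45 to 4.54 in metformin and 4.36 to 4.43 in filtered-air mice. All 5 combined mice thus lay above every filtered-air mouse, and combined mice 1, 2 and 4 above every mouse of the other groups. Combined mice 2 and 4 had the highest control medians. The calls of members in the combined group, and the counts of other gene lists in it against filtered air, are therefore also given without them. They are also given with the control median as a covariate. Leaving out mice 2 and 4 does not remove the difference in control median from filtered air. All 10 measured hepatocyte markers lay above the 95th percentile of the controls. Portal fibroblast and mesothelial markers lay at or below the control median for 7 of 12 genes, including Thy1, Gli1 and Msln, and lymphocyte markers for 7 of 8.

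Measured against that background, 9 of the 27 tested members had a mean above the 95th percentile of the controls: Col18a1, Lrat, Rgs5, Hgf, Dcn, Lum, Bgn, Sparc and Fn1. Lum was above it on 16 arrays and the other 8 on all 20. Among all genes tested, 44.0% had such a mean. Col4a1, Col6a2 and Timp3 averaged 4.41, 4.21 and 4.29, below the control median, and Col6a1 averaged 4.55, so group differences of these 4 genes cannot be told from background. The 7 dim members were Col5a1, Col5a2, Col15a1, Des, Lox, Loxl1 and Timp1, with means between 2.83 for Timp1 and 3.79 for Col15a1. Of a further list of 17 measured stellate markers, 14 lay above the control median, and Hand2, Ngfr and Gfap did not. Among the stellate cell markers, Lrat and Hgf were thus far above background, Reln and Pdgfrb averaged 1.12 and 1.62 log2 above the control median, and Des and Gfap were not above it.

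**Figure D1:**
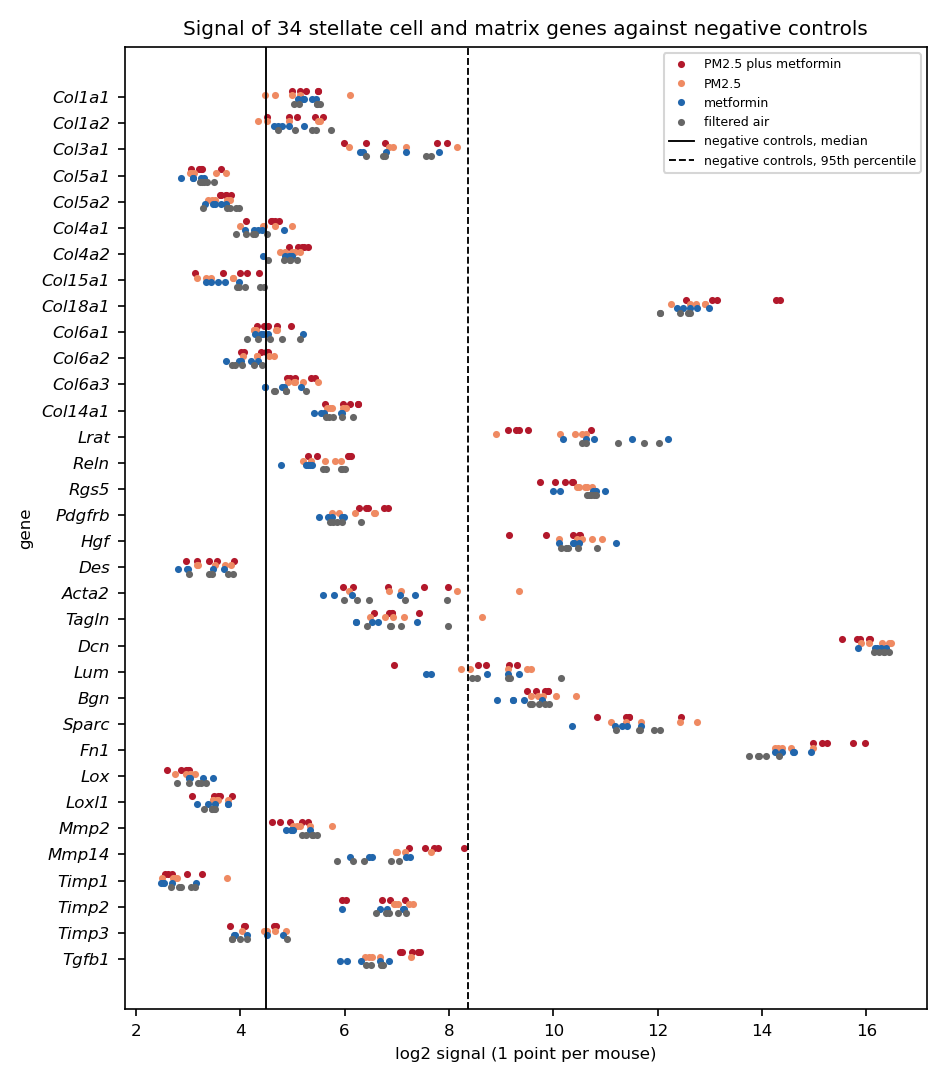
Log2 signal of the 34 measured genes on the x axis, with 1 point per mouse and a colour per group, and the median (solid line, 4.49) and 95th percentile (dashed line, 8.36) of the negative controls. Dcn and Fn1 lie far to the right of the dashed line, and the 7 dim genes lie left of the solid line.

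The words rose and fell are kept for genes that limma put under a Benjamini-Hochberg adjusted p of 0.05, adjusted over the 11844 genes. Every member called between 2 groups was called in a comparison that included the combined group. Against filtered air, 5 of the 27 tested members rose (Fn1, Mmp14, Col18a1, Pdgfrb and Tgfb1) and 3 fell (Lrat, Rgs5 and Dcn). Over all genes tested 18.7% rose and 16.2% fell, 34.9% in all, so the members' share of 8 of 27 was near the background. The median difference of the members was 0.00 log2, beside 0.01 over all genes tested.

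Against PM2.5 alone, Fn1 and Tgfb1 rose in the combined group and no member fell, beside 6.95% of all genes that rose and 4.73% that fell, 11.7% in all. Against metformin alone, Tgfb1, Fn1, Pdgfrb, Mmp14, Reln and Col18a1 rose and Lrat fell, 7 of 27 members, beside 9.69% of all genes that rose and 6.63% that fell, 16.3% in all. The median difference against metformin was 0.25 log2 over the members and 0.02 over all genes, and the members' median against PM2.5 was -0.06 beside -0.01. These 3 comparisons share the 5 combined mice, so they are not independent of each other.

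PM2.5 alone changed none of the 27 members against filtered air at this threshold in limma, beside 5.17% of all genes called (2.67% higher and 2.5% lower). At the looser cut of an unadjusted p under 0.05, 3 of 27 members passed. The share of all genes at that looser cut is not given here, so the 3 cannot be set against 5.17%. The lowest adjusted p was that of Lrat, at 0.0945. With array weights 1 member passed, Fn1, at a log2 difference of 0.53 and adjusted p 0.0420.

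Metformin alone also changed none of the 27 against filtered air in limma, beside 3.15% of all genes called (1.26% higher and 1.89% lower). At an unadjusted p under 0.05, a looser cut without a share of all genes beside it, 3 of 27 members passed. The lowest adjusted p was 0.0700, for Reln. Reln, Fn1 or both passed under 4 of 10 other settings and in 1 fit without a single mouse.

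The interaction is the difference of combined from PM2.5 mice minus the difference of metformin from filtered-air mice. It was past the threshold in limma for 0 of 27 members, beside 0.186% of all genes (0.160% higher and 0.0253% lower). At an unadjusted p under 0.05, again without a share of all genes beside it, 2 of 27 members passed. An F test over the 4 groups, which asks whether a gene differs among them at all, was passed by 9 of 27 members, beside 32.1% of all genes. The 9 were Fn1, Mmp14, Tgfb1, Lrat, Pdgfrb, Col18a1, Reln, Bgn and Rgs5.

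**Figure D2:**
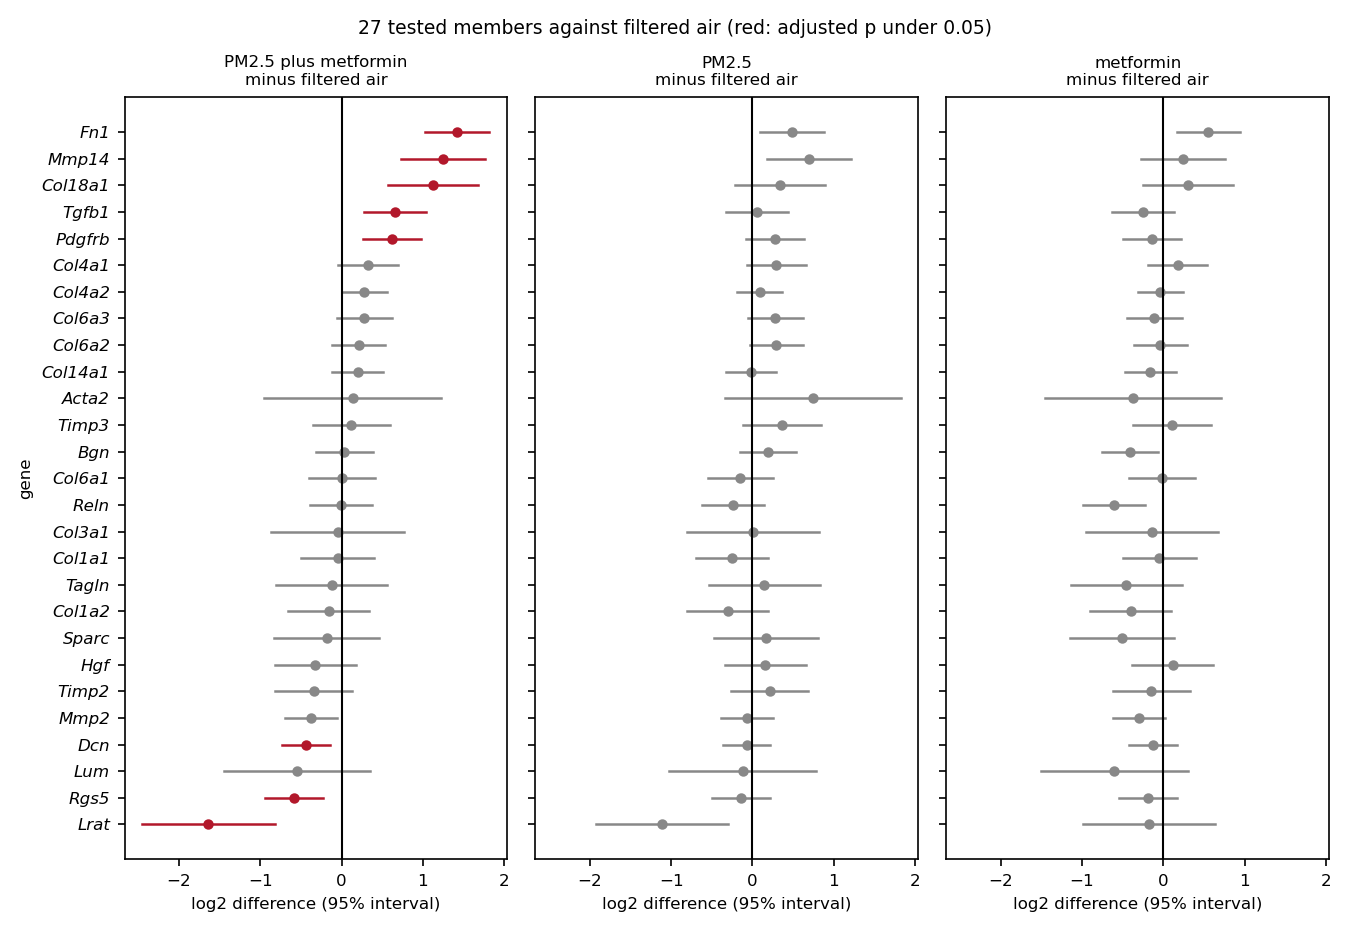
Log2 difference from filtered air (x axis, point) with its 95% interval (line) for the 27 tested members, in the combined group, in PM2.5 and in metformin mice, with genes in the order of the first panel and red for an adjusted p under 0.05. Red points appear in the first panel only, for 5 genes to the right of 0 and 3 to the left.

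Among the matrix glycoproteins and proteoglycans, fibronectin and decorin changed in opposite directions in the combined group. Fn1 encodes fibronectin, which links collagen to integrins on cells. Its log2 signal was 14.99, 15.74, 15.25, 15.98 and 15.15 in combined mice 1 to 5 and 14.30, 14.55, 14.38, 14.25 and 14.98 in PM2.5 mice. It was 14.26, 14.39, 14.94, 14.61 and 14.60 in metformin mice and 13.76, 13.93, 13.94, 14.34 and 14.07 in filtered-air mice. All 5 combined mice lay above every other mouse, by the narrowest margin over PM2.5 mouse 5, while PM2.5 and metformin mice overlapped the top of the filtered-air range. The mean was 15.42 ± 0.42 in combined, 14.49 ± 0.29 in PM2.5, 14.56 ± 0.26 in metformin and 14.01 ± 0.21 in filtered-air mice (SD, n = 5 each).

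The combined mice exceeded filtered air in Fn1 by 1.41 log2 (SE 0.19, adjusted p 2.38e-05), which is 2.67-fold. The rise was 0.93 log2 over PM2.5 mice (SE 0.19, adjusted p 0.00431) and 0.86 log2 over metformin mice (SE 0.19, adjusted p 0.00490). PM2.5 alone gave 0.48 log2 (95% interval 0.09 to 0.88, adjusted p 0.130) and metformin alone 0.55 log2 (0.16 to 0.95, adjusted p 0.108). The interaction of Fn1 was 0.38 log2 (-0.18 to 0.93, adjusted p 0.586), so the sum of the 2 single differences and the combined difference were not told apart. Combined mice 2 and 4, the pair with the highest control medians, had the 2 highest Fn1 values. Without them the difference from filtered air was 1.12 log2 (adjusted p 0.000535) that from PM2.5 was 0.64 log2 (adjusted p 0.0782) and that from metformin was 0.57 log2 (adjusted p 0.0748), so the calls against PM2.5 and metformin were both lost without them. With the control median as a covariate the same differences were 0.99 log2 (adjusted p 0.00742), 0.58 log2 (adjusted p 0.174) and 0.65 log2 (adjusted p 0.0224).

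Dcn encodes decorin, a small proteoglycan that binds collagen fibrils and transforming growth factor beta. It read 16.07, 15.54, 15.82, 15.87 and 16.04 log2 in combined mice and 16.44, 16.35, 16.16, 16.33 and 16.24 in filtered-air mice. All 5 combined mice lay below all 5 filtered-air mice, but overlapped the PM2.5 range of 15.89 to 16.46 and the metformin range of 15.84 to 16.38. The difference from filtered air was -0.43 log2 (SE 0.14, adjusted p 0.0208), or 1.35-fold lower. In bulk liver, fewer cells of a type and less RNA per cell cannot be told apart. The call was lost without combined mice 2 and 4 (-0.32 log2, adjusted p 0.142), with the control median as a covariate (-0.21 log2, adjusted p 0.451), without combined mouse 2 (-0.35 log2, adjusted p 0.0684) and without filtered-air mouse 1 (-0.40 log2, adjusted p 0.0521).

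Bgn encodes biglycan, a proteoglycan related to decorin. It passed the F test (adjusted p 0.0400) but no comparison of 2 groups. It ranged from 9.50 to 9.91 log2 in combined and from 9.57 to 10.44 in PM2.5 mice. It read 9.22, 8.93, 9.78, 9.44 and 9.22 in metformin mice and 9.72, 9.91, 9.84, 9.60 and 9.56 in filtered-air mice. Metformin mice held the lowest values, and mouse 3 of that group lay among the others. The metformin difference was -0.41 log2 (95% interval -0.75 to -0.06, adjusted p 0.185), and the combined mice stood 0.44 log2 above metformin mice (0.10 to 0.79, adjusted p 0.0722).

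Lum, for the collagen-binding proteoglycan lumican, and Sparc, for a glycoprotein that binds collagen, varied widely within groups. Lum ranged from 6.94 to 9.30 log2 in combined, 8.22 to 9.57 in PM2.5, 7.56 to 9.35 in metformin and 8.44 to 10.15 in filtered-air mice. Sparc ranged from 10.83 to 12.44 in combined, 11.10 to 12.75 in PM2.5, 10.35 to 11.68 in metformin and 11.20 to 12.05 in filtered-air mice. Neither passed any test, and the 95% interval of the combined difference from filtered air was -1.45 to 0.35 log2 for Lum and -0.82 to 0.46 for Sparc.

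Among the basement membrane collagens, only Col18a1 passed a test. Col18a1 encodes the alpha 1 chain of type XVIII collagen, from which endostatin is cut. It read 12.54, 14.27, 13.04, 14.34 and 13.14 log2 in combined mice and 12.90, 12.73, 12.62, 12.25 and 12.91 in PM2.5 mice. It read 12.63, 12.49, 12.98, 12.76 and 12.37 in metformin mice and 12.05, 12.04, 12.61, 12.58 and 12.43 in filtered-air mice. Combined mice 2 and 4 were more than 1 log2 above all others, while combined mouse 1 lay inside the ranges of the other groups, so the combined group overlapped each of them.

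The combined group exceeded filtered air in Col18a1 by 1.12 log2 (SE 0.27, adjusted p 0.00260), or 2.18-fold, and metformin mice by 0.82 log2 (SE 0.27, adjusted p 0.0381). Against PM2.5 the difference was 0.78 log2 (adjusted p 0.0576). Without combined mice 2 and 4 it was 0.56 log2 against filtered air (adjusted p 0.0464) and 0.26 log2 against metformin (adjusted p 0.470), and with the covariate 0.42 log2 (adjusted p 0.322) and 0.48 log2 (adjusted p 0.170). The size of the Col18a1 rise thus rested on the same 2 mice whose negative controls were highest. It was also lost against metformin without combined mouse 2 (0.62 log2, adjusted p 0.117), combined mouse 4 (0.60 log2, adjusted p 0.129) or any of metformin mice 1, 2, 4 and 5 (0.75 to 0.85 log2, adjusted p 0.0545 to 0.0907). Among the other settings it was lost with no filter (adjusted p 0.0527), with array weights (0.58 log2, adjusted p 0.110) and with the compared arrays alone (adjusted p 0.114).

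Col4a1 and Col4a2, the chains of the main type IV collagen, lay close to background. Col4a2 stood 0.28 log2 above filtered air in the combined group (SE 0.13, adjusted p 0.114) and 0.31 log2 above metformin (0.04 to 0.59, adjusted p 0.112). Col4a1 stood 0.32 log2 above filtered air in the combined group (adjusted p 0.167) and 0.29 log2 above it in PM2.5 mice (adjusted p 0.333), at levels around the control median.

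The fibrillar collagens, which form the scar of a fibrotic liver, passed no test. Col1a1 and Col1a2, for the chains of type I collagen, averaged 5.24 and 5.05 log2, within 1 log2 of the control median, and Col3a1, for type III collagen, averaged 6.98. Col3a1 read 7.95, 5.99, 6.77, 6.42 and 7.77 in combined, 6.84, 6.09, 7.19, 8.15 and 6.93 in PM2.5, 7.81, 6.29, 6.80, 6.36 and 7.18 in metformin, and 6.77, 7.65, 6.74, 6.42 and 7.57 in filtered-air mice. The groups overlapped almost fully. The combined difference from filtered air was -0.05 log2 for Col3a1 (95% interval -0.86 to 0.76) and -0.05 log2 for Col1a1 (-0.49 to 0.40). For Col1a2 the metformin difference was -0.40 log2 (-0.90 to 0.10, adjusted p 0.387). With intervals this wide an absence of change was not shown.

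The type VI collagen genes and Col14a1, for a collagen that coats fibrils, also passed no test. Col6a3 differed by 0.39 log2 (95% interval 0.05 to 0.72, adjusted p 0.106) and Col14a1 by 0.36 log2 (0.05 to 0.67, adjusted p 0.106) between combined and metformin mice. In PM2.5 mice, Col6a2 and Col6a3 stood 0.29 and 0.28 log2 above filtered air (adjusted p 0.279 and 0.317). Col6a1 and Col6a2 were at background, as given above.

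The stellate cell and pericyte markers did not move as a group in combined mice: Pdgfrb rose against filtered air and metformin, Reln rose against metformin, Lrat fell against both, Rgs5 fell against filtered air, and Acta2, Tagln and Hgf passed no test. Lrat encodes lecithin retinol acyltransferase, the enzyme that makes the retinyl esters stored in stellate cells. Its log2 signal was 9.13, 9.52, 9.28, 9.34 and 10.73 in combined mice and 10.41, 10.13, 10.63, 10.55 and 8.90 in PM2.5 mice. It was 11.52, 10.78, 10.18, 10.62 and 12.19 in metformin mice and 12.02, 11.25, 10.55, 11.74 and 10.63 in filtered-air mice. In the combined group 4 of 5 mice lay below all metformin and filtered-air mice, and mouse 5 lay inside both ranges. The mean of 12 Kupffer cell and macrophage markers set the same mouse apart, at 10.17 log2 in combined mouse 5 and 7.46 to 8.78 in combined mice 1 to 4.

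Lrat in combined mice differed from filtered air by -1.64 log2 (SE 0.39, adjusted p 0.00286), or 3.11-fold lower, and from metformin mice by -1.46 log2 (SE 0.39, adjusted p 0.0156). PM2.5 alone differed from filtered air by -1.11 log2 (95% interval -1.93 to -0.30, adjusted p 0.0945), and metformin alone by -0.18 log2 (-0.99 to 0.64, adjusted p 0.850). Combined and PM2.5 mice differed by -0.52 log2 (-1.34 to 0.29, adjusted p 0.426). Without combined mice 2 and 4 the difference from filtered air was -1.52 log2 (adjusted p 0.0269) and that from metformin -1.35 log2 (adjusted p 0.101), and with the covariate they were -0.996 log2 (adjusted p 0.192) and -1.15 log2 (adjusted p 0.0721). Without metformin mouse 5 the difference from metformin was -1.18 log2 (adjusted p 0.0518).

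Rgs5 encodes a regulator of G protein signalling found in pericytes. It read 10.22, 10.02, 10.38, 9.75 and 10.37 log2 in combined mice and 10.74, 10.45, 10.50, 10.65 and 10.60 in PM2.5 mice. It read 10.99, 10.13, 10.82, 10.004 and 10.76 in metformin mice and 10.72, 10.69, 10.64, 10.81 and 10.77 in filtered-air mice. All 5 combined mice lay below every PM2.5 and filtered-air mouse, and metformin mice 2 and 4 lay among the combined mice. The combined difference was -0.58 log2 from filtered air (SE 0.17, adjusted p 0.0112), or 1.496-fold lower, and -0.44 log2 from PM2.5 (SE 0.17, adjusted p 0.0955). The difference from filtered air was -0.41 log2 without combined mice 2 and 4 (adjusted p 0.122) and -0.35 log2 with the covariate (adjusted p 0.303). Its F test adjusted p was so close under 0.05 that it rounds to it.

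Promoters were read from RefSeq (GRCm38.p6) for 25 of the 36 listed genes, as the bases before the annotated start. The 250 bases before the start of each of the 2 fallen stellate and pericyte markers are shown, because the pair moved the same way in the combined group. Lrat lies on the minus strand, at chr3:82903975-82904224, and Rgs5 on the plus strand, at chr1:169655251-169655500. Capitals mark a GC box (GGGCGG) or a CCAAT box (CCAAT) on either strand, with reverse matches printed as CCGCCC and ATTGG.
Lrat: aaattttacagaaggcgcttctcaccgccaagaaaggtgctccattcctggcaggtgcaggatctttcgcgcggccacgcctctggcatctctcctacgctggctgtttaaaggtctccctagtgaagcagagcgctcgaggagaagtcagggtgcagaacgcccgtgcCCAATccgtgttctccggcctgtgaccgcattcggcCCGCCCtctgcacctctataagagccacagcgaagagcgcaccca
Rgs5: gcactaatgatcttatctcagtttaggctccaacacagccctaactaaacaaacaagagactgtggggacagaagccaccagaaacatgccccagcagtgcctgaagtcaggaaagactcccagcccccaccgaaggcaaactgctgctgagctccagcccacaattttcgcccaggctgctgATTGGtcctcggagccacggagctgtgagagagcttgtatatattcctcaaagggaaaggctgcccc
The Lrat window holds 1 CCAAT box and 1 GC box, and the Rgs5 window holds 1 CCAAT box and 0 GC boxes. A CCAAT box is found in 33.9% and a GC box in 32.7% of 32841 mouse promoter windows of this length. The TATA box (TATAAA), the AP-1 site (TGANTCA) and the SMAD-binding element (GTCTG), searched on both strands, were found in neither window, beside 12.4%, 6.75% and 42.2% of all windows.

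Pdgfrb encodes the beta receptor for platelet-derived growth factor, a strong mitogen for stellate cells. It read 6.45, 6.83, 6.27, 6.42 and 6.75 log2 in combined mice and 5.90, 5.75, 6.56, 6.19 and 6.58 in PM2.5 mice. It read 5.95, 5.51, 5.99, 5.67 and 5.77 in metformin mice and 5.94, 6.32, 5.86, 5.78 and 5.71 in filtered-air mice. The combined mice lay above all metformin mice, and their lowest value, 6.27, was just under filtered-air mouse 2. The rise was 0.62 log2 over filtered air (SE 0.17, adjusted p 0.00781), or 1.54-fold, and 0.77 log2 over metformin (SE 0.17, adjusted p 0.00552), or 1.70-fold. Against filtered air it was 0.57 log2 without combined mice 2 and 4 (adjusted p 0.0465) and 0.49 log2 with the covariate (adjusted p 0.170). The rise over metformin was past the threshold in all 10 other settings and all 20 fits without a single mouse. Pdgfrb averaged 1.62 log2 above the control median, so background limits the size of its fold.

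Reln encodes reelin, a secreted glycoprotein that marks stellate cells in liver. It read 6.07, 5.47, 6.09, 5.31 and 6.13 log2 in combined mice and 5.35, 5.20, 5.63, 5.81 and 5.93 in PM2.5 mice. It read 5.25, 4.79, 5.37, 5.34 and 5.31 in metformin mice and 5.92, 5.96, 5.58, 6.01 and 5.64 in filtered-air mice. Every metformin mouse lay below every filtered-air mouse, a separation that 3.57% of all genes tested showed in that direction and 3.18% in the other. The metformin difference was -0.61 log2 (95% interval -0.99 to -0.23, adjusted p 0.0700), and combined mice stood 0.60 log2 above metformin mice (SE 0.18, adjusted p 0.0288), or 1.52-fold. Reln averaged 1.12 log2 above the control median, so background limits the size of this fold. Combined and filtered-air mice differed by -0.01 log2 (-0.39 to 0.37). The interaction was 0.84 log2 (0.30 to 1.38, adjusted p 0.160). The rise over metformin was 0.89 log2 without combined mice 2 and 4 (adjusted p 0.0120) and 0.75 log2 with the covariate (adjusted p 0.0162). It was lost in a fit of the compared arrays alone (adjusted p 0.0714), without metformin mouse 2 (0.50 log2, adjusted p 0.0823) and without combined mouse 1, 3 or 5 (0.52 to 0.54 log2, adjusted p 0.0560 to 0.0699).

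Acta2, for the smooth muscle actin of myofibroblasts and vessel walls, and Tagln, for the actin-binding protein transgelin, varied widely between mice of a group. Acta2 read 7.52, 7.98, 5.97, 6.17 and 6.83 log2 in combined, 6.09, 8.15, 6.84, 9.34 and 7.08 in PM2.5, 7.06, 6.15, 5.80, 5.59 and 7.35 in metformin, and 6.23, 7.15, 6.48, 5.98 and 7.96 in filtered-air mice. PM2.5 mouse 4 was the highest of all 20 mice for Acta2 (9.34), Tagln (8.64), Col1a1 (6.10), Col3a1 (8.15) and Sparc (12.75). The PM2.5 difference of Acta2 from filtered air was 0.74 log2 (95% interval -0.34 to 1.82, adjusted p 0.419) and that of Tagln 0.14 log2 (-0.54 to 0.83, adjusted p 0.835). Hgf, for the hepatocyte growth factor that stellate cells release, differed by -0.48 log2 between combined and PM2.5 mice (-0.98 to 0.02, adjusted p 0.202), with combined mouse 2 lowest at 9.15.

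**Figure D3:**
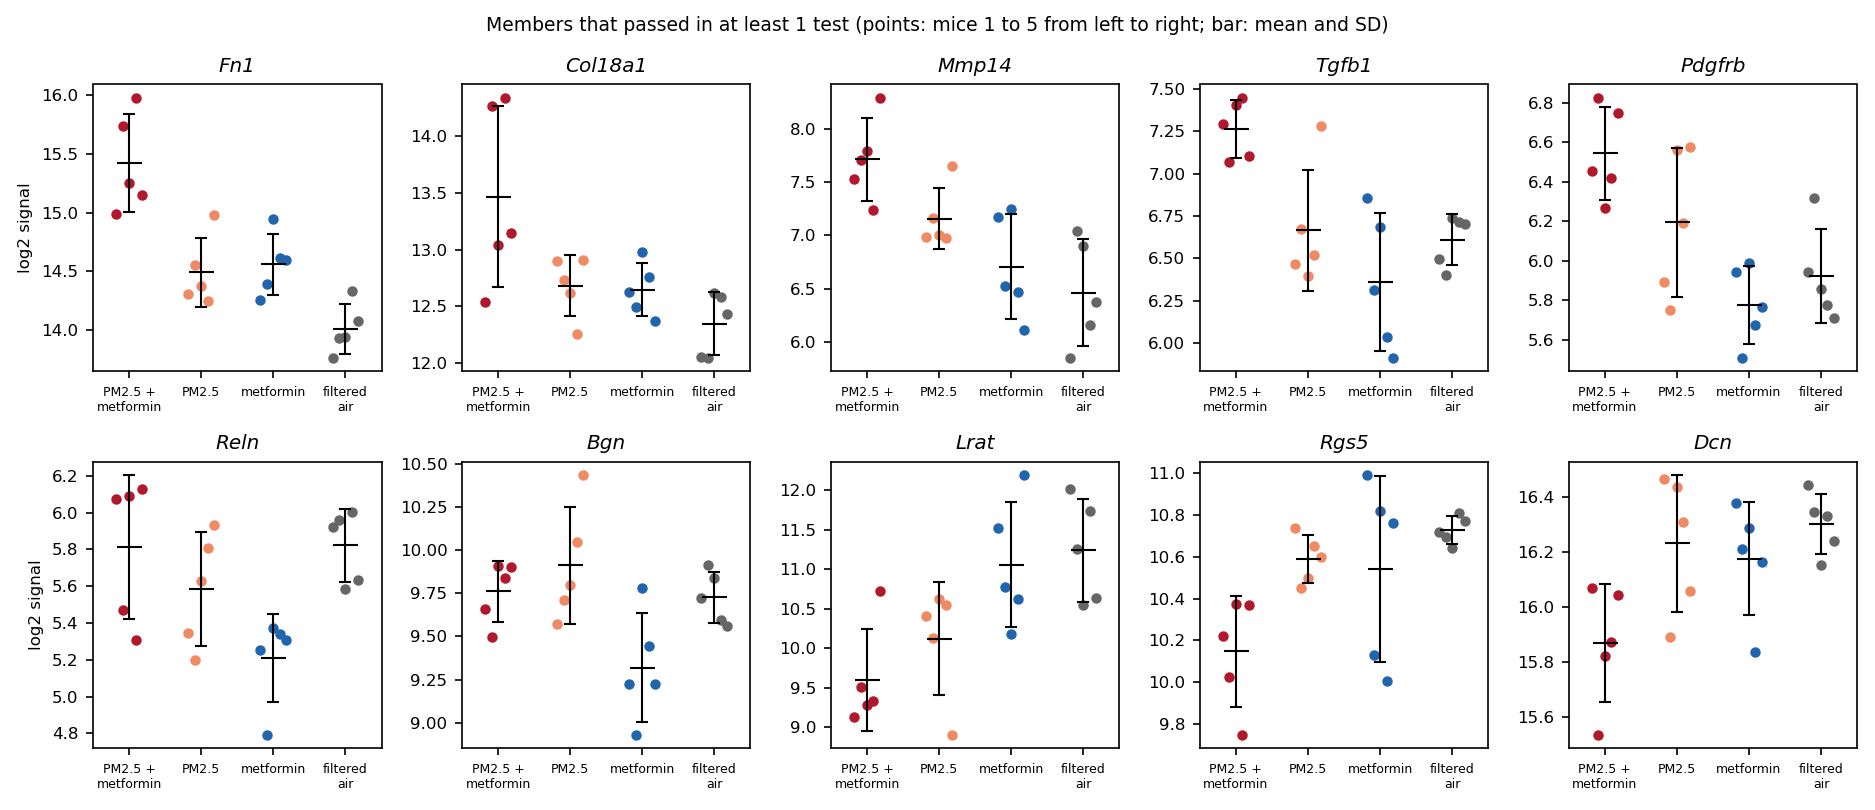
Log2 signal (y axis, a scale of its own in each panel) of the 10 members that passed at least 1 test, by group on the x axis, with points for mice 1 to 5 from left to right and a bar for the mean and SD. Fn1, Mmp14 and Tgfb1 are highest in the combined mice, Lrat, Rgs5 and Dcn are lowest there, and Reln and Bgn are lowest in the metformin mice.

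Among the enzymes and inhibitors of matrix turnover, Mmp14 rose in the combined group, and Mmp2, Timp2 and Timp3 passed no test. Mmp14 encodes a membrane-bound metalloproteinase that cleaves collagen and activates the Mmp2 proenzyme with the help of Timp2. Its log2 signal was 7.53, 7.71, 7.79, 7.24 and 8.29 in combined mice and 6.99, 7.17, 7.00, 6.98 and 7.65 in PM2.5 mice. It was 7.18, 6.53, 7.25, 6.47 and 6.11 in metformin mice and 5.85, 7.04, 6.90, 6.16 and 6.38 in filtered-air mice. Every combined mouse lay above every filtered-air mouse, and combined mouse 4 lay just under the highest metformin mouse. The filtered-air mice themselves spread over more than 1 log2.

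The rise of Mmp14 in combined mice was 1.25 log2 over filtered air (SE 0.25, adjusted p 0.000645), or 2.38-fold, and 1.01 log2 over metformin (SE 0.25, adjusted p 0.00937), or 2.01-fold. PM2.5 alone stood 0.69 log2 above filtered air (95% interval 0.18 to 1.21, adjusted p 0.0981), and combined mice 0.55 log2 above PM2.5 mice (0.04 to 1.07, adjusted p 0.150). Without combined mice 2 and 4 the rise over filtered air was 1.41 log2 (adjusted p 0.00242), and with the covariate 1.24 log2 (adjusted p 0.0257). Both rises were past the threshold in all 10 other settings and all 20 fits without a single mouse. Mmp14 averaged 2.52 log2 above the control median and lay above the 95th percentile of the controls on 1 array. Background thus limits the size of its folds. Mmp2, a gelatinase of stellate cells, read 4.62 to 5.30 log2 in combined mice and 5.18 to 5.48 in filtered-air mice. Its combined difference from filtered air was -0.38 log2 (-0.70 to -0.05, adjusted p 0.0634) at a level near background, and its metformin difference was -0.30 log2 (adjusted p 0.304). Timp2, for a metalloproteinase inhibitor, differed by -0.55 log2 between combined and PM2.5 mice (-1.02 to -0.08, adjusted p 0.119), with combined mice 2 and 4 lowest at 5.96 and 6.02.

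Tgfb1, the growth factor gene of the set, encodes transforming growth factor beta 1, which drives matrix production in stellate cells. It read 7.30, 7.07, 7.40, 7.45 and 7.10 log2 in combined mice and 6.47, 6.67, 6.39, 6.52 and 7.28 in PM2.5 mice. It read 6.86, 6.31, 6.69, 6.04 and 5.91 in metformin mice and 6.50, 6.40, 6.74, 6.72 and 6.70 in filtered-air mice. Every combined mouse lay above every metformin and filtered-air mouse, and PM2.5 mouse 5 alone reached into the combined range. Tgfb1 averaged 2.24 log2 above the control median and lay above the 95th percentile of the controls on 0 arrays. Background thus limits the size of its folds. The rise was 0.65 log2 over filtered air (SE 0.18, adjusted p 0.00850), or 1.57-fold, 0.60 log2 over PM2.5 (SE 0.18, adjusted p 0.0378), or 1.51-fold, and 0.90 log2 over metformin (SE 0.18, adjusted p 0.00318), or 1.87-fold.

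The single exposures did not pass for Tgfb1: PM2.5 differed from filtered air by 0.05 log2 (95% interval -0.33 to 0.43) and metformin by -0.25 log2 (-0.63 to 0.13). The interaction was 0.85 log2 (0.31 to 1.39, adjusted p 0.160). Without combined mice 2 and 4 the rise over filtered air was 0.66 log2 (adjusted p 0.0349), over metformin 0.91 log2 (adjusted p 0.0256), and over PM2.5 0.60 log2 (adjusted p 0.165). With the covariate these were 0.51 log2 (adjusted p 0.180), 0.83 log2 (adjusted p 0.0143) and 0.48 log2 (adjusted p 0.346). The call against PM2.5 was also lost without any 1 of PM2.5 mice 1 to 4 (0.53 to 0.60 log2, adjusted p 0.0567 to 0.100) or combined mice 1 to 4 (0.55 to 0.65 log2, adjusted p 0.0506 to 0.105), with no filter (adjusted p 0.0506) and with the compared arrays alone (adjusted p 0.0738).

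The promoter windows of Mmp14, on the plus strand at chr14:54431348-54431597, and Tgfb1, on the plus strand at chr7:25686752-25687001, are shown with the same marks, as those of an enzyme and a growth factor that rose in the combined group. Fn1, which also rose, has no entry in the promoter table used here.
Mmp14: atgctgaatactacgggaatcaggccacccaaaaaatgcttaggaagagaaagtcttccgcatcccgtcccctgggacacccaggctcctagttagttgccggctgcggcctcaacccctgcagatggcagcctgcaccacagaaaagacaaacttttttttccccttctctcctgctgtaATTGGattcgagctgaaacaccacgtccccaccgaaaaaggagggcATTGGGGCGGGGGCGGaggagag
Tgfb1: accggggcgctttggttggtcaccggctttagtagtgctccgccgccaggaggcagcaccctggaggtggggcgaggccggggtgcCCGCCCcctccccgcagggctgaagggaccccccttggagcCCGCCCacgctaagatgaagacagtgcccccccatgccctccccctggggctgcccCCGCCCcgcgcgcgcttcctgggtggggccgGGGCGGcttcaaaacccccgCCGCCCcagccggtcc
The Mmp14 window holds 2 GC boxes and 2 CCAAT boxes in reverse, 1 of which shares bases with a GC box. The Tgfb1 window holds 5 GC boxes and 0 CCAAT boxes. The TATA box, the AP-1 site and the SMAD-binding element were found in neither.

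Of the 27 tested members, those whose combined and filtered-air mice did not overlap were Fn1, Mmp14 and Tgfb1 above and Rgs5 and Dcn below, where 11.8% and 9.03% of all genes were separated above and below. Against PM2.5 the combined mice were separated in Fn1 above and Rgs5 below (4.44% and 1.90% of all genes), and against metformin in Tgfb1, Fn1 and Pdgfrb above (5.54%). No member separated PM2.5 from filtered-air mice, beside 3.55% of all genes above and 3.39% below.

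Left untested for their low signal, the 7 dim members gave 0 calls in a fit with no filter in limma. The lowest adjusted p was that of Col15a1, for a basement membrane collagen, in the F test (0.0780). It differed by -0.64 log2 between PM2.5 and filtered-air mice (adjusted p 0.0861), with values of 3.16 to 3.87 against 3.94 to 4.45, all below the mean control median. Lox and Loxl1, for enzymes that cross-link collagen, Timp1, for a metalloproteinase inhibitor that rises in fibrosis, and Des, for desmin, lay below the control median in every mouse.

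Single mice stood out across members. Metformin mice 2 and 4 were each the lowest of their group for 10 of the 27 tested members, with mean deviations of -0.42 and -0.37 log2 from the members' means over all mice. PM2.5 mouse 4 had a mean deviation of 0.32 log2 and was the highest of its group for 6 members and the lowest for 7, while PM2.5 mouse 5 was the highest for 11. Filtered-air mouse 3 was the lowest of its group for 11 members.

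**Figure D4:**
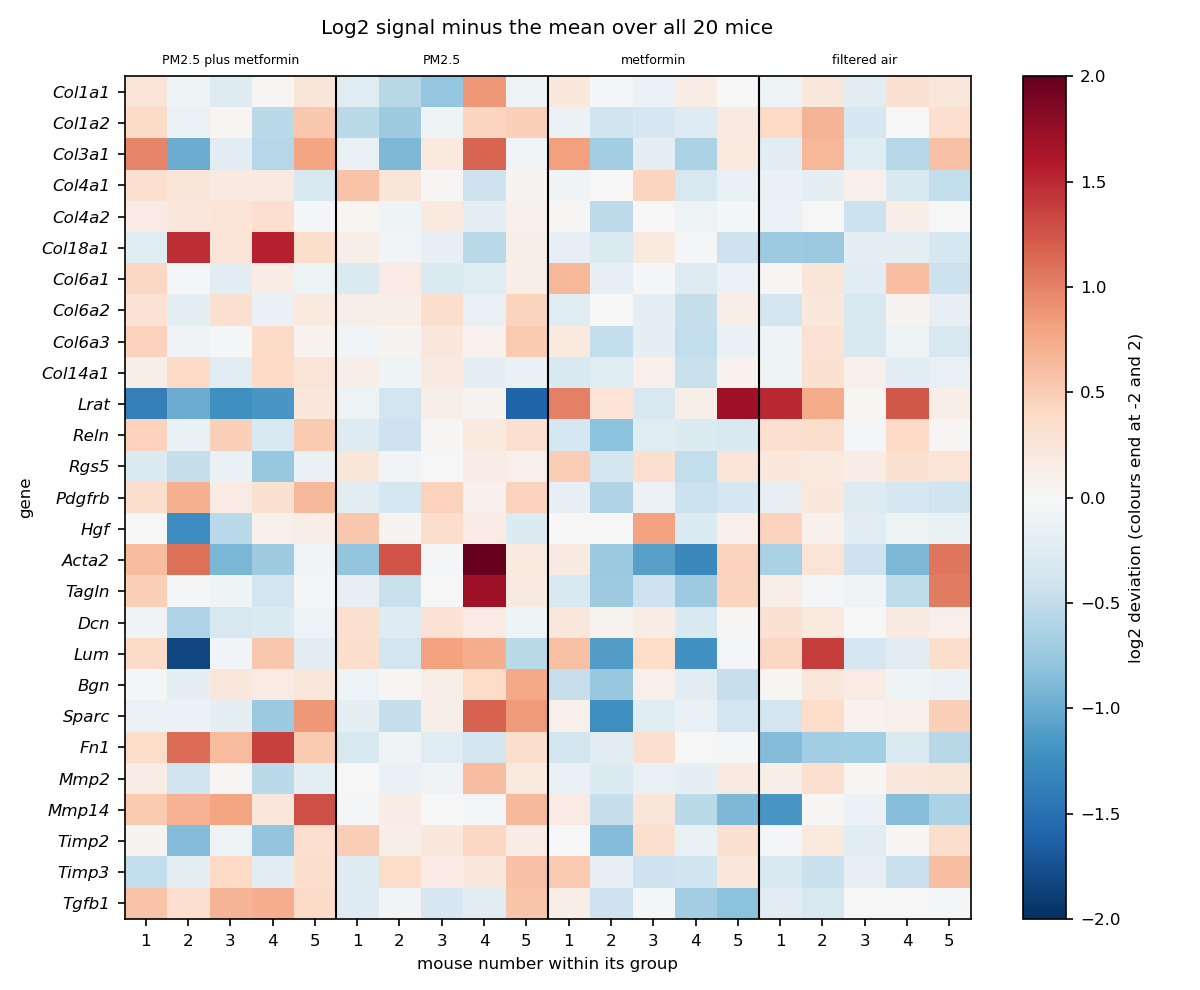
Log2 signal of the 27 tested members (rows) in each mouse (columns, numbered within its group), minus the gene's mean over all 20 mice, with red above and blue below. Fn1, Mmp14 and Tgfb1 are red across the combined mice, Lrat is blue in 4 of them, and Col18a1 is darkest in combined mice 2 and 4.

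Other genes of the same pathways were taken from lists made by function. Their counts in the combined group against filtered air stand beside 18.7% of all genes that rose and 16.2% that fell, or 34.9% in all, which was 21.5% without combined mice 2 and 4 and 8.90% with the covariate. Of 18 tested genes of transforming growth factor beta signalling other than Tgfb1, 5 rose and 0 fell in the combined group against filtered air. They were Tgfbi, for a matrix protein induced by the factor (10.19 ± 0.38 log2 in combined against 8.82 ± 0.29 in filtered-air mice, SD, n = 5 each, difference 1.37, adjusted p 2.21e-05), Tgfbr3, for its co-receptor (difference 1.11, adjusted p 0.000142), Smad4, for the shared signal mediator (0.71, adjusted p 0.00206), Smad7 and Tgfbr1. In PM2.5 mice 3 of the 18 rose and 0 fell, beside 2.67% of all genes that rose: Tgfbi by 0.76 log2 (adjusted p 0.0177), Skil by 0.76 (adjusted p 0.0403) and Id3 by 1.17 (adjusted p 0.0473). In the combined group against filtered air 5 of the 18 rose without combined mice 2 and 4 and 4 with the control median as a covariate. Against PM2.5, Tgfbi rose in the combined group (0.60 log2, adjusted p 0.0345) and Skil, for a repressor of SMAD proteins, fell (difference -0.82 log2, adjusted p 0.0162), and both calls were lost without combined mice 2 and 4 and with the covariate.

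Of 15 tested genes of collagen processing, 4 rose and 2 fell against filtered air in the combined group. Plod1, for a lysyl hydroxylase, rose by 1.39 log2 (adjusted p 0.000466), P4hb, for a subunit of prolyl hydroxylase, by 1.04 log2 (adjusted p 0.000491), and Bmp1, for the enzyme that removes the C-terminal propeptide of collagen, by 0.95 log2 (adjusted p 0.000547). Serpinh1, for the collagen chaperone HSP47, differed by -0.87 log2 (adjusted p 0.0173). The count of 6 of 15 was near the share over all genes. Of the 15, 3 rose and 1 fell without combined mice 2 and 4, and with the control median as a covariate 0 of the 15 rose and 0 fell in limma. Of 17 other matrix components, 5 rose and 0 fell: Lamc1 by 1.21 log2 (adjusted p 0.000213) and Lamb1, for laminin chains, Agrn, for agrin, by 0.84 log2 (adjusted p 0.000541), Vtn, for vitronectin, and Mgp, whose means of 4.57 and 3.77 in combined and filtered-air mice lie at and below background. Lamb1 averaged 5.35 log2 in combined and 4.50 in filtered-air mice, the latter close to the control median. Of these 17, 3 rose without combined mice 2 and 4 and 3 with the covariate.

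Of the 16 other stellate markers tested, 6 rose and 2 fell against filtered air in the combined group. Steap4 rose by 0.84 log2 (adjusted p 0.00278) and Abcc9 by 0.78 log2 (adjusted p 0.00346), while Colec10, for a collectin made by stellate cells, differed by -0.83 log2 (adjusted p 0.000895) and was also lower than in PM2.5 mice (-0.63 log2, adjusted p 0.0209). The call against PM2.5 was lost without combined mice 2 and 4 and with the covariate. Against filtered air, 6 of the 16 rose and 1 fell without combined mice 2 and 4, and 3 rose and 0 fell with the covariate. Of 8 contractile genes, 1 rose, Actn1, by 0.60 log2 (adjusted p 0.0463), and 0 did without combined mice 2 and 4 or with the covariate. Actn1 averaged 4.96 in combined and 4.36 in filtered-air mice, where the control median averaged 4.59 and 4.41. This rise cannot be told from background. All 6 tested partners of the platelet-derived and hepatocyte growth factor receptors passed against filtered air, 3 in each direction: the ligand genes Pdgfa (-0.61 log2, adjusted p 0.00838), Pdgfd (-0.98, adjusted p 0.0108) and Pdgfc (-1.04, adjusted p 0.0173) fell in the combined group, and Hgfac (0.62 log2, adjusted p 0.0238), for a protease that activates hepatocyte growth factor, Spint2 (0.51 log2, adjusted p 0.0253), for a protease inhibitor, and the receptor gene Met (0.40 log2, adjusted p 0.0316) rose. Of the 6, 1 rose and 1 fell without combined mice 2 and 4, and with the covariate 0 rose and 1 fell. Met also rose in metformin mice against filtered air (0.59 log2, adjusted p 0.0238). Of 5 tested genes of matrix turnover, Adamts1 rose in combined against metformin mice (0.88 log2, adjusted p 0.0209), and it was the sole gene of these 5 to pass in a comparison of 2 groups when all 20 mice were fitted without the covariate. Against filtered air 0 of the 5 passed in combined mice, 1 rose without combined mice 2 and 4, and 0 passed with the covariate.

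Some markers of other liver cells moved with the combined group too. Against filtered air, 3 of 10 tested hepatocyte markers rose there, beside 18.7% of all genes. Falls were seen in 1 of 3 cholangiocyte and 1 of 5 portal fibroblast and mesothelial markers, beside 16.2%. No tested lymphocyte or neutrophil marker passed. Without combined mice 2 and 4 these calls were 2, 1 and 1, and with the covariate 0, 1 and 0. The mean of 12 Kupffer cell and macrophage markers was 8.78, 7.46, 8.36, 8.58 and 10.17 log2 in combined mice 1 to 5, against 9.55 to 10.31 in PM2.5, 8.78 to 9.24 in metformin and 9.09 to 9.93 in filtered-air mice. Of the 12, 6 fell against filtered air, beside 16.2% of all genes, and 1 rose, Cd163 (0.72 log2, adjusted p 0.0317). The mean of 14 endothelial markers was 8.87, 8.40, 9.06, 8.49 and 9.57 log2 in combined mice, against 9.43 to 9.86 in PM2.5, 8.88 to 9.30 in metformin and 9.24 to 9.57 in filtered-air mice, and 5 of 14 fell against filtered air. In both lists combined mouse 5 was highest of its group, as it was for Lrat. Mouse 2 was lowest in both lists, whereas the lowest Lrat of the group was that of mouse 1. Without combined mice 2 and 4, 2 of the 12 Kupffer and 3 of the 14 endothelial markers fell against filtered air. With the control median as a covariate 0 of 12 and 1 of 14 fell. The shares of all genes called in either direction were 21.5% and 8.90% in these 2 settings. Against PM2.5, 8 of the 12 and 7 of the 14 fell, beside 4.73% of all genes. These counts were 1 and 3 without combined mice 2 and 4, beside 1.74% of all genes called in either direction. With the covariate they were 0 and 0, beside 0.667%. Against metformin, 1 of 12 Kupffer and 3 of 14 endothelial markers fell, beside 6.63% of all genes. The endothelial marker Stab2 rose by 1.11 log2 (adjusted p 0.00116), beside 9.69% of all genes that rose. The falls against metformin were 0 and 0 without combined mice 2 and 4, beside 4.21% of all genes called in either direction. With the covariate they were 0 and 2, beside 8.52%. The part of these markers in the results for Lrat, Rgs5 and Dcn was not tested.

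**Figure D5:**
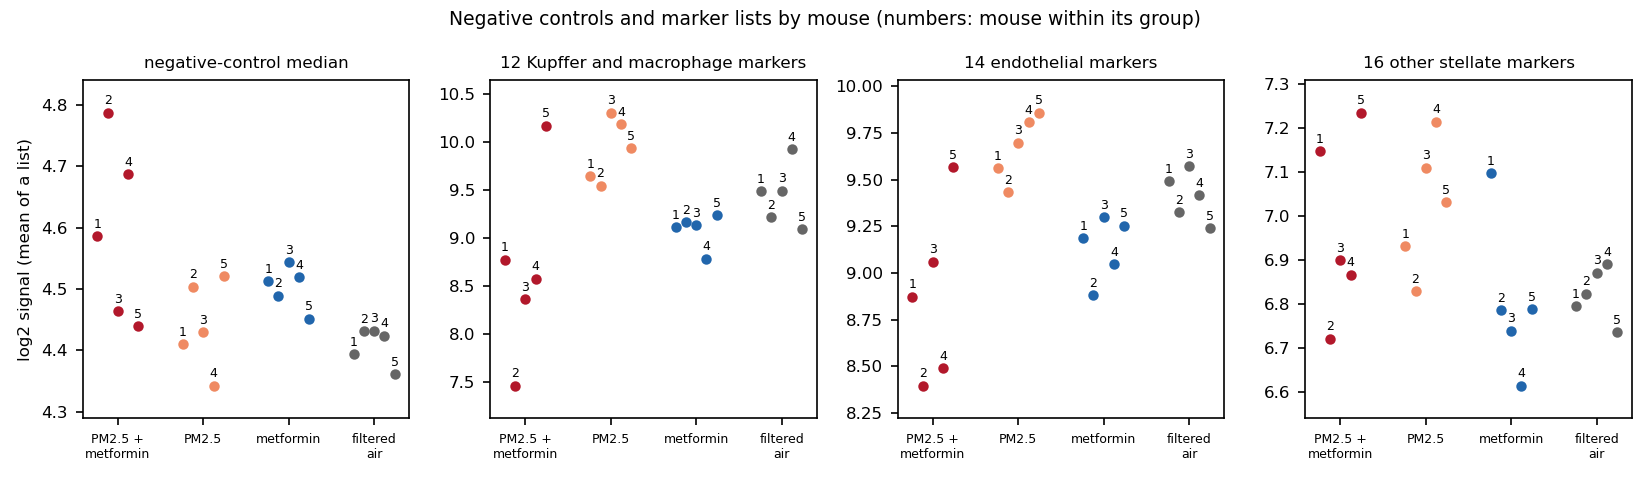
Log2 signal by group, with 1 numbered point per mouse, for the median of the negative controls and for the mean of the tested Kupffer and macrophage, endothelial and other stellate markers, each panel on its own scale. Combined mice 2 and 4 have the highest control medians (4.79 and 4.69), and combined mouse 5 has the highest mean of its group in each marker panel.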

How the data were processed

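For each of 20 arrays the authors deposited probe set signals on a log2 scale, made with Affymetrix Expression Console per the submitters' processing notes. Its version and summary method are not given in the sources used here. The array type named in the series text is not the one whose annotation holds these probe set identifiers, and gene names come from that annotation. Of 28846 probe sets, 6640 were controls, 5222 of them negative controls. A listed gene takes its probe set of highest mean over the 20 arrays, and each of the 34 had 1.

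Groups were compared with limma 3.58.1 in R 4.3.3, as a model of 4 group means fitted to all 11844 genes above the 40th percentile, with eBayes (residual degrees of freedom 16, prior 5.68) and two-sided Benjamini-Hochberg adjustment over all of them. Each gene has 1 residual variance, shared by the 4 groups. The fit was tested on simulated data with independent normal values and the same spread in every group. That test could not cover unequal spread between groups or arrays that deviate as a whole. Arrays give no read depth, and their number limits the precision.

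Tried as alternatives were quantile normalization, centring arrays on their median, the control median as a covariate, no dim-gene filter or one at the 60th percentile, array weights, trend and robust eBayes, averaging probe sets within genes, the compared arrays alone, leaving out combined mice 2 and 4, and leaving out each mouse in turn. Members past an adjusted p of 0.05 in any test are described with every mouse, up to 3 others with the lowest p of each comparison are named, and up to 3 genes per other list, with further ones chosen after their values were seen. The members and lists were chosen with earlier results of these data known.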

Additional observations from a re-analysis of the deposited data

Results flagged for a closer look

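In 108 groups of 5 mice, 1 for each tested member and group, the highest or lowest mouse was set apart from the others by Dixon's ratio in 7, where chance alone sets apart about 5% of groups. These were Lrat in combined mouse 5 (10.73 log2, the next mouse at 9.52), Col4a1 in combined mouse 5 (4.11, the next at 4.59), Mmp14 in PM2.5 mouse 5 (7.65, the next at 7.17), Reln in metformin mouse 2 (4.79, the next at 5.25), Col4a2 in metformin mouse 2 (4.44, the next at 4.86), Col6a1 in metformin mouse 1 (5.21, the next at 4.53) and Timp3 in filtered-air mouse 5 (4.89, the next at 4.13). The values of Col4a1, Col6a1 and Timp3 lie around the level of the negative controls.

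The negative-control probe sets, which measure no gene and enter no comparison, had a median that averaged 4.59 ± 0.15 log2 in the combined group and 4.41 ± 0.03 in filtered air (SD, n = 5 each). All 5 combined mice lay above every filtered-air mouse, and combined mice 2 and 4 were the highest of the 20.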

How the results depend on the processing

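Of the 17 calls of a member in a comparison, none changed direction under the alternatives run for it, 10 for each call except Reln over metformin, which lies under the 60th-percentile filter and had 9, or in the 20 fits without a single mouse. The rises of Fn1 and Mmp14 over filtered air, and of Mmp14, Tgfb1 and Pdgfrb over metformin, stayed past the threshold in all of them. Between combined and filtered-air mice 8 members were called as reported, and 7 to 9 without a single mouse. The count was 2 with the control median as a covariate, where 8.90% of all genes were called. Without combined mice 2 and 4 it was 6, beside 21.5% of all genes. Against PM2.5, 2 members were called as reported, beside 11.7% of all genes, and 1 to 4 without a single mouse. The count was 1 with no filter and 1 with the compared arrays alone. With the covariate it was 0, beside 0.667% of all genes, and without combined mice 2 and 4 also 0, beside 1.74%. Against metformin, 7 were called as reported, beside 16.3% of all genes, and 5 to 8 without a single mouse. Without combined mice 2 and 4 the count was 4, beside 4.21% of all genes, and with the covariate 5, beside 8.52%. Between PM2.5 and filtered air 0 were called as reported and 1 with array weights. Between metformin and filtered air 0 were called as reported, and 0 to 1 without a single mouse. The count was 1 with quantile normalization, 2 with array weights and 1 with the compared arrays alone. Without combined mice 2 and 4 it was 2, beside 4.42% of all genes. The F test called 9 members as reported and 6 to 9 without a single mouse. Where no share of all genes stands beside a count, moves particular to the members cannot be told from moves of all genes. The causes of these moves were not tested. No paired analysis was possible because mouse numbers only follow deposit order and no label pairs mice across groups. Scaling moved the median of all genes by under 0.1 log2 in every comparison, and 18 of the 27 tested members averaged below the 95th percentile of the negative controls, where background limits the size of a fold.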
